A study of Rattus norvegicus with 8 samples.

Results

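Interferon response genes were read in the orbitofrontal cortex of 8 male Sprague-Dawley rats, adults of an outbred stock. They were taken as the protein-coding rows of the deposited count table whose symbol is among 36 listed interferon response symbols. The table held 33 of the 36, among 34298 rows, and all 33 passed the filter on low counts that left 16573 genes for testing. Ifit1bl, Oas1b and Xaf1 had no row under those spellings. Rows spelled Ifit1lb and XAF1 were kept out of the list and are given separately below.

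The animals were 8 weeks old on arrival. Each received, in the orbitofrontal cortex, 1 µl of JetPEI transfection reagent holding 5 ng of siRNA, and tissue was taken 7 days later. The scrambled group, infused with a scrambled control duplex, has replicates 1, 3, 4 and 5. The knockdown group, replicates 1 to 4, received a duplex aimed at the junction that closes circNrxn3, a circular RNA made from neurexin 3 transcripts. In all sentences below, values follow this order of replicates. All 8 animals therefore carry the surgery, the transfection reagent and a synthetic RNA duplex, and no group without infusion was analysed here. Both strands of the circNrxn3 duplex are shown because several of the genes below encode receptors of double-stranded or short RNA. Each strand has 21 bases, with the 19 paired bases in capitals and the overhang in lower case, and the letters of the scrambled duplex were not analysed here.
circNrxn3 siRNA sense: UCCAAAGGCUAGACAGGAAuu
circNrxn3 siRNA antisense: UUCCUGUCUAGCCUUUGGAuu

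Type I interferons act through the receptor chains Ifnar1 and Ifnar2 and the kinases Jak1 and Tyk2, which activate transcription factors, Stat2 among them. A complex that holds Stat2 and Irf9 binds the interferon-stimulated response element (ISRE) of target genes, and factors activated by interferon gamma bind the GAS element. Targets include the sensors that detect foreign RNA, the factor Irf7 that amplifies the response, and effectors that block viral replication. In brain, microglia, astrocytes, endothelial cells and neurons can all mount this response.

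Library totals ran from 27589883 to 35221782 counts, and levels are given as CPM, counts divided by a library's total over the genes tested, scaled by the TMM method. The 16 neuron markers were all tested and summed to 11649 to 13343 CPM per library, as fits the labelled tissue. The leukocyte marker Ccr2 and the endothelial marker Cldn5 had 0 counts in each library. Cldn5 was the only 1 of 18 endothelial markers in the table at 0 throughout. These 18 summed to 1780 to 2119 CPM in the scrambled and 1704 to 1941 CPM in the knockdown libraries. Nrxn3 was at 344, 114, 216 and 261 counts in the scrambled and 430, 381, 82 and 268 in the knockdown libraries. Poly-T selected libraries hold mainly linear mRNA, so Nrxn3 counts do not check the circle. Scrambled replicate 4 and knockdown replicate 1 stood apart from the other 6 libraries in interferon response genes, and results are given with and without them.

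As a set, the interferon response genes varied widely between animals, and the difference between the group means was small beside that spread. A score, the mean over the 33 genes of log2 CPM (prior count 2) minus each gene's mean, was 0.05, −1.55, 1.16 and 0.15 in scrambled replicates 1, 3, 4 and 5. It was 1.26, −0.23, 0.01 and −0.86 in knockdown replicates 1 to 4. Each group thus held 1 library with a high score and 1 with a low score, and the groups overlapped fully. The group means were −0.05 ± 1.12 and 0.05 ± 0.89 (SD, n = 4 each). The median gene was 3.05-fold higher in knockdown replicate 1, and 2.26-fold higher in scrambled replicate 4, than the median of the other 6 libraries. Scrambled replicate 3 was at 0.461 of the median of the 5 remaining libraries.

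**Figure D1:**
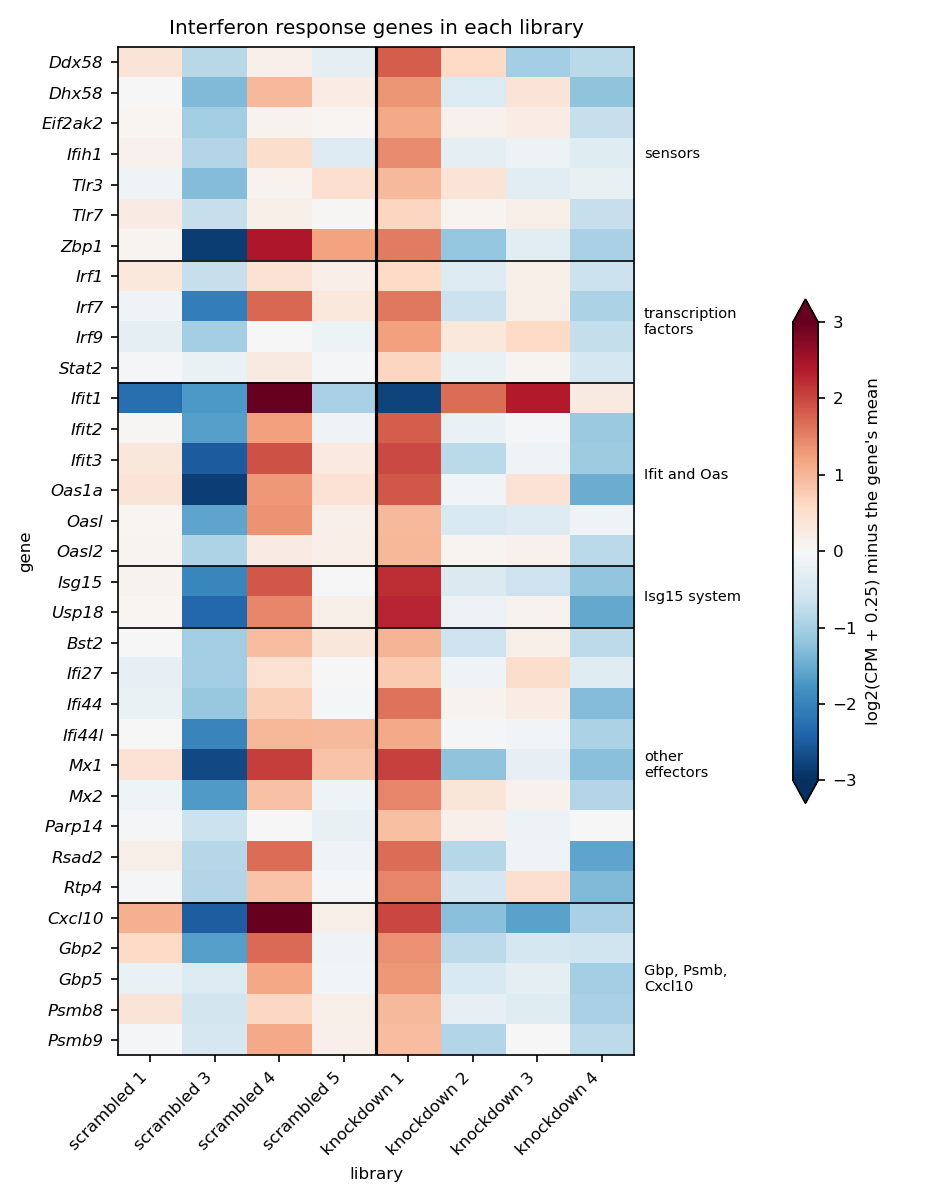
Heat map of log2(CPM + 0.25) minus each gene's mean over the 8 libraries, with genes in rows ordered by role and libraries in columns, and a vertical line between the groups. Scrambled replicate 4 and knockdown replicate 1 are red in nearly every row, scrambled replicate 3 and knockdown replicate 4 are mostly blue, and Ifit1 departs from the other rows.

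None of the 33 genes differed between the groups in the edgeR quasi-likelihood test. The test called 0 of the 33 at an adjusted p under 0.05, against 0.00% of the 16573 genes tested. At an unadjusted p under 0.05 it also found 0 of the 33, against 5.59% of all genes, with 0 members higher in knockdown (2.38% of all genes) and 0 lower (3.20%). DESeq2 and limma-voom called 0 of the 33 as well, against 0.109% and 0.00% of all genes. Ifi27 had a DESeq2 adjusted p of 0.681. Irf9, Eif2ak2, Usp18, Ifit2, Isg15, Oasl2, Dhx58, Irf1, Psmb9, Cxcl10, Ifit1, Parp14 and Ddx58 had none, so DESeq2 could not call them. The scrambled and knockdown ranges overlapped for all 33, and did not overlap for 3.48% of all genes tested. Log2 fold changes, knockdown over scrambled, ran from −1.20 (Cxcl10) to 0.91 (Ddx58), with standard errors of 0.23 to 1.73. Their median was 0.13 with 18 above 0, beside a median of 0.01 and 51.3% above 0 over all genes tested.

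This median changed as single libraries were left out, most with knockdown replicate 1 and scrambled replicate 4. It was −0.58 with 6 of 33 genes above 0 without knockdown replicate 1, and 0.56 with 32 of 33 above 0 without scrambled replicate 4. Without both it was −0.08 with 11 of 33 above 0. It was also −0.15 without scrambled replicate 3, 0.35 without knockdown replicate 4 and 0.04 without scrambled replicate 1. The edgeR test called 0 of the 33 genes in each of these fits.

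The precision of the comparison was lower for these genes than for most. Their median biological coefficient of variation was 0.597, against 0.207 for all genes tested, and the SD of log2 CPM over the 8 libraries lay above the median gene's for all 33 and above the 90th percentile for 20. In simulated data the test recovered 59.7% of genes changed 2-fold and 31.3% of those changed 1.5-fold. The changed genes were drawn only from the better-counted part of the 16573, so these rates leave out genes at low levels. They were also not drawn from the more variable members in particular, whose recovery was not simulated.

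**Figure D2:**
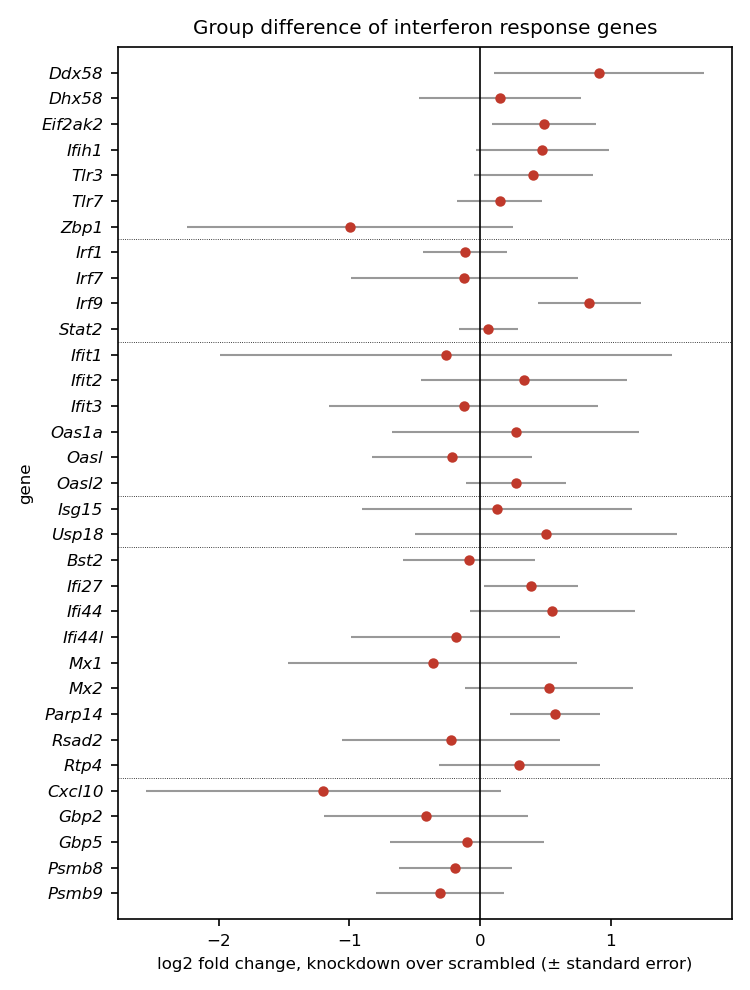
Log2 fold change of knockdown over scrambled (points) with its standard error (bars) for the 33 genes, in rows ordered by role as in the heat map. Values lie between −1.20 and 0.91, and the widest error, 1.73, is that of Ifit1.

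Among the 7 nucleic acid sensors, 6 had log2 fold changes above 0 and 0 passed the edgeR test. Eif2ak2 encodes PKR, the kinase that shuts down translation on binding double-stranded RNA (chromosome 6, 1428834 to 1466201, rn6). It was at 19.0, 8.77, 19.8 and 18.9 CPM in the scrambled and 40.5, 19.9, 21.3 and 11.3 CPM in the knockdown libraries. Knockdown replicate 1 was highest and scrambled replicate 3 lowest, and the other 6 values ran from 11.3 to 21.3 CPM across both groups. The log2 fold change was 0.49 (standard error 0.40, edgeR adjusted p = 0.851).

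Ddx58 encodes RIG-I, a cytosolic sensor of RNA ends, and was the lowest-count member. Its CPM were 0.894, 0.239, 0.715 and 0.476 in the scrambled and 2.81, 1.08, 0.180 and 0.252 in the knockdown libraries. Its log2 fold change of 0.91 (standard error 0.81, edgeR adjusted p = 0.864) turned to −0.08 without scrambled replicate 4 and knockdown replicate 1. Dhx58 encodes LGP2, a regulator of RIG-I-like sensors, and its model lies within 1 kb of Kat2a. It was at 7.26, 2.74, 14.2 and 8.50 CPM in the scrambled and 18.4, 5.35, 9.50 and 2.99 CPM in the knockdown libraries. Both high values are those of the libraries with high scores. Ifih1, the sensor MDA5, and the endosomal RNA receptors Tlr3 and Tlr7 were each highest in knockdown replicate 1, at 6.24, 4.38 and 5.51 CPM. Zbp1, a sensor of Z-form nucleic acid, had 0 counts in scrambled replicate 3 and reached 9.33 CPM in scrambled replicate 4 (log2 fold change −1.0, standard error 1.25).

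Of the 4 transcription factors 2 had log2 fold changes above 0, and Irf9 had the smallest unadjusted p of the 33 genes (0.0645, edgeR). Irf9 encodes the DNA-binding part of a complex with Stat2 (chromosome 15, 34282936 to 34288138, rn6). Its CPM were 17.3, 10.0, 20.6 and 18.7 in the scrambled and 48.8, 25.8, 31.7 and 12.6 in the knockdown libraries. Knockdown replicates 1, 2 and 3 lay above all 4 scrambled libraries and knockdown replicate 4 below 3 of them. The log2 fold change was 0.84 (standard error 0.39, edgeR adjusted p = 0.833), and it stayed between 0.49 and 1.09 when single libraries were left out. Irf9 lies within 1 kb of Rnf31.

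Irf1, an early factor of the interferon gamma response, spanned a narrower range. It was at 9.30, 4.56, 10.2 and 8.67 CPM in the scrambled and 11.4, 5.58, 8.46 and 4.73 CPM in the knockdown libraries (log2 fold change −0.11, standard error 0.32, edgeR adjusted p = 0.956). Irf7 ranged from 4.77 CPM in scrambled replicate 3 to 69.7 CPM in scrambled replicate 4, with 62.7 CPM in knockdown replicate 1 (log2 fold change −0.12, standard error 0.87). The model of Irf7 overlaps that of Phrf1 on the opposite strand, and the sources used here do not say whether counting used the strand. Stat2 was the steadiest member, with a highest library 2.25-fold above the lowest.

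The Isg15 system showed the common pattern at a large scale. Isg15 encodes a ubiquitin-like protein that is joined to other proteins during infection (chromosome 5, 173624310 to 173626248, rn6). It was at 9.05, 1.97, 31.1 and 8.26 CPM in the scrambled and 39.8, 6.14, 5.36 and 3.56 CPM in the knockdown libraries. The high library of each group lay more than 3-fold above every other library of that group. The log2 fold change was 0.13 (standard error 1.03, edgeR adjusted p = 0.989), and it was −0.35 without both high libraries. Usp18 encodes the protease that removes Isg15 and dampens receptor signalling. Usp18 was at 9.55, 1.58, 25.5 and 10.3 CPM in the scrambled and 45.4, 8.10, 9.82 and 2.99 CPM in the knockdown libraries (log2 fold change 0.50, standard error 1.00, edgeR adjusted p = 0.939).

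Of the 6 Ifit and Oas genes 3 had log2 fold changes above 0. Some Ifit proteins bind foreign RNA ends, and those Oas proteins that are active enzymes make the messenger that activates RNase L. Ifit2 (chromosome 1, 252894663 to 252900726, rn6) was at 10.6, 3.16, 24.9 and 9.69 CPM in the scrambled and 37.2, 9.07, 10.1 and 4.70 CPM in the knockdown libraries (log2 fold change 0.34, standard error 0.79, edgeR adjusted p = 0.946). Oasl2 was at 12.5, 6.08, 13.9 and 13.7 CPM in the scrambled and 23.9, 12.4, 12.8 and 6.65 CPM in the knockdown libraries (log2 fold change 0.27, standard error 0.39, edgeR adjusted p = 0.911). For Oasl2 knockdown replicate 1 stood above the rest and scrambled replicate 3 and knockdown replicate 4 below, while scrambled replicate 4 was near scrambled replicates 1 and 5. Oas1a spanned 0.477 CPM in scrambled replicate 3 to 18.4 CPM in knockdown replicate 1, a 38.6-fold range. Oasl ran from 0.686 CPM in scrambled replicate 3 to 6.86 CPM in scrambled replicate 4. Reads may be split among the close copies of the Oas family, so single Oas values are uncertain.

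Ifit1 departed from the other members. Reads of Ifit1 numbered 3, 9, 592 and 18 in the scrambled and 0, 159, 241 and 57 in the knockdown libraries. Its neighbour Ifit3 had 174, 22, 641 and 178 counts in the scrambled and 738, 82, 123 and 70 counts in the knockdown libraries. Knockdown replicate 1 was thus the highest of the 8 libraries for Ifit3 and for Ifit2 (1377 counts), and had no read of Ifit1. A count of 0 there allows up to 0.0811 CPM of Ifit1 (3 counts), which covers counting error only.

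Per 100 counts of Ifit3, Ifit1 had 1.72, 40.9, 92.4 and 10.1 counts in the scrambled and 0, 194, 196 and 81.4 counts in the knockdown libraries. The log2 fold change of Ifit1 was −0.26 (standard error 1.73, edgeR adjusted p = 0.987), and without scrambled replicate 4 and knockdown replicate 1 it was 3.97 (edgeR adjusted p = 1.0). Ifit1 lies at 252944103 to 252946170 on chromosome 1 in rn6, near Ifit1lb, a related gene whose symbol RefSeq gives as a synonym of Ifit1bl. Ifit1lb had 24, 20, 60 and 32 counts in the scrambled and 46, 47, 34 and 27 counts in the knockdown libraries. In the RefSeq annotation of the GRCr8 assembly Ifit1 lies within the span of Ifit1bl. Reads may be split between such copies, and the part of this or of sequence differences between outbred animals in the Ifit1 values was not tested.

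**Figure D3:**
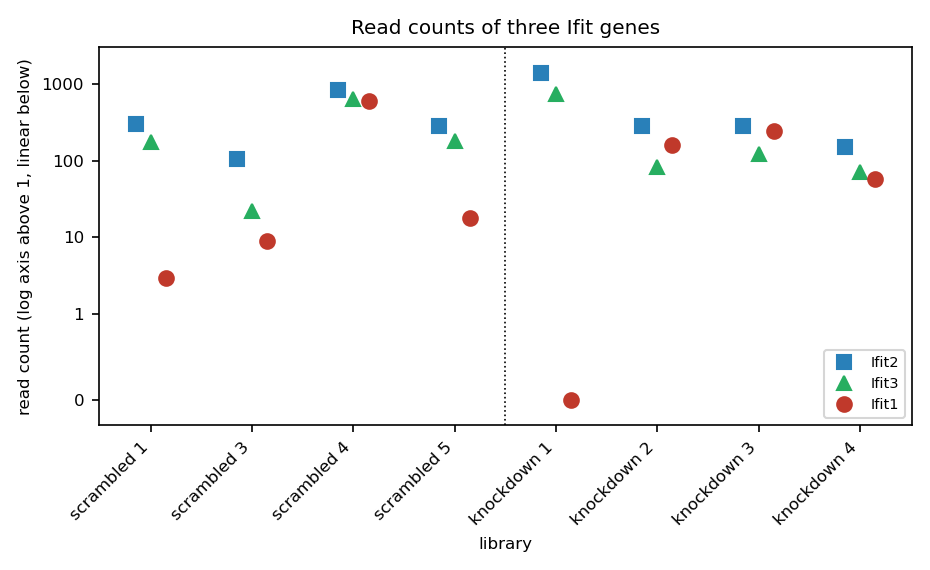
Read counts of Ifit2, Ifit3 and Ifit1 in each of the 8 libraries, with a vertical axis that is logarithmic above 1 and linear below. Ifit2 and Ifit3 rise and fall together, whereas Ifit1 is at 0 in knockdown replicate 1, where both of the others are highest.

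The 9 other antiviral effectors included 5 with log2 fold changes above 0. Ifi27, an interferon-induced mitochondrial protein, had by far the highest level per length, a mean of 271 FPKM over the 8 libraries, against 15.3 FPKM for Mx2, the next member, and 0.217 FPKM for Parp14, the lowest. Ifi27 was at 173, 98.4, 282 and 203 CPM in the scrambled and 351, 186, 295 and 159 CPM in the knockdown libraries (log2 fold change 0.39, standard error 0.36, edgeR adjusted p = 0.867). Parp14, an ADP-ribosyltransferase, was at 1.47, 0.865, 1.49 and 1.26 CPM in the scrambled and 3.00, 1.70, 1.33 and 1.51 CPM in the knockdown libraries (log2 fold change 0.57, standard error 0.34, edgeR adjusted p = 0.833). In Parp14 knockdown replicate 1 was high and scrambled replicate 4 was not.

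The GTPase Mx1, which blocks incoming viruses, ranged from 1.28 CPM in scrambled replicate 3 to 41.9 and 41.3 CPM in scrambled replicate 4 and knockdown replicate 1. Rsad2, which encodes viperin, was at 12.7 and 12.6 CPM in those 2 libraries and at 1.10 to 4.29 CPM in the other 6. Mx2, Ifi44 and Rtp4 were highest in knockdown replicate 1, at 104, 42.8 and 25.1 CPM. So were Ifi44l, at 2.70 CPM, and Bst2 (tetherin, which holds budding virions at the membrane), at 17.7 CPM. XAF1, kept out of the list for its spelling, was at 2.06 to 5.60 CPM with its highest value in knockdown replicate 1 too.

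All 5 genes of the last role, guanylate-binding proteins, immunoproteasome subunits and a chemokine, had log2 fold changes below 0, and 0 passed. This common sign did not hold without scrambled replicate 4, where Psmb9 had 0.13 and Cxcl10 0.26, and 32 of the 33 members were above 0. Cxcl10 encodes a chemokine that attracts T cells (chromosome 14, 17210733 to 17212930, rn6). It was at 5.01, 0.209, 20.8 and 2.62 CPM in the scrambled and 9.92, 0.816, 0.576 and 1.04 CPM in the knockdown libraries, a 99.7-fold span. Its log2 fold change of −1.20 (standard error 1.36, edgeR adjusted p = 0.896) went from −3.13 to 0.26 as single libraries were left out, and its model overlaps that of Art3 on the opposite strand.

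Psmb9, an immunoproteasome subunit, was at 6.01, 4.29, 13.9 and 7.00 CPM in the scrambled and 12.1, 3.26, 6.33 and 3.53 CPM in the knockdown libraries (log2 fold change −0.31, standard error 0.49, edgeR adjusted p = 0.922). Psmb8 and Psmb9 both lie within 1 kb of Tap1. Gbp2 and Gbp5, GTPases that attack the vacuoles of pathogens, reached 19.3 and 5.48 CPM in scrambled replicate 4 and 15.4 and 6.08 CPM in knockdown replicate 1. The score of these 5 genes was 1.61 in scrambled replicate 4 and 1.39 in knockdown replicate 1. The score of the 6 Ifit and Oas genes had the same order, at 1.70 and 0.62. Within that role Ifit1 lay 8.12 log2 units higher in scrambled replicate 4, and Oasl was also higher there. Ifit2, Ifit3, Oas1a and Oasl2 were higher in knockdown replicate 1, so the order of this score was not that of most of its genes. The order was the reverse in the other 4 roles, such as sensors (0.72 and 1.40) and transcription factors (0.61 and 1.02).

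Across the 8 libraries the members rose and fell together. Knockdown replicate 1 held the highest value of 24 genes and scrambled replicate 4 that of the other 9, namely Irf7, Mx1, Ifit1, Oasl, Rsad2, Zbp1, Gbp2, Psmb9 and Cxcl10. Over all genes tested, 13.2% were highest in the first of these libraries and 13.1% in the second. These 2 libraries, chosen from the members' own values, were the top pair for 25 of the 33 members and for 2.67% of all genes tested. The 8 exceptions were Ifi27, Irf9, Eif2ak2, Tlr3, Tlr7, Parp14, Ddx58 and Ifit1. Scrambled replicate 3 held the lowest value of 23 members, against 22.5% of all genes. It also held the highest value of 19.2% of all genes, more than any other library, and had the fewest genes with a read (18274, against 19487 to 20494 in the other 7) at a total of 35191810 counts.

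For each pair of members Pearson's r was computed on log2 CPM over the 8 libraries. The median r of the 528 pairs was 0.84, against −0.00025 over all 137323878 pairs of genes tested. An r of at least 0.7 was found in 424 pairs, or 80.3%, against 5.98% of all pairs. Below 0 were 24 pairs, each with Ifit1, whose median r with the other members was −0.07. Without Ifit1 the lowest r was 0.43 and the median 0.85. With values centred on their group means, which removes the group difference, the median was 0.88. Both genes of a pair were read in the same libraries, whose depth, RNA quality and cell makeup may differ, so these values are descriptions.

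The co-variation was not confined to the 2 libraries with high scores. Without them the median r of the 528 pairs was 0.71, and 276 pairs, or 52.3%, had an r of at least 0.7, against 9.17% of all pairs of genes. When scrambled replicate 3 was left out as well, the median over the 5 remaining libraries was 0.61 and 81 pairs were below 0.

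**Figure D4:**
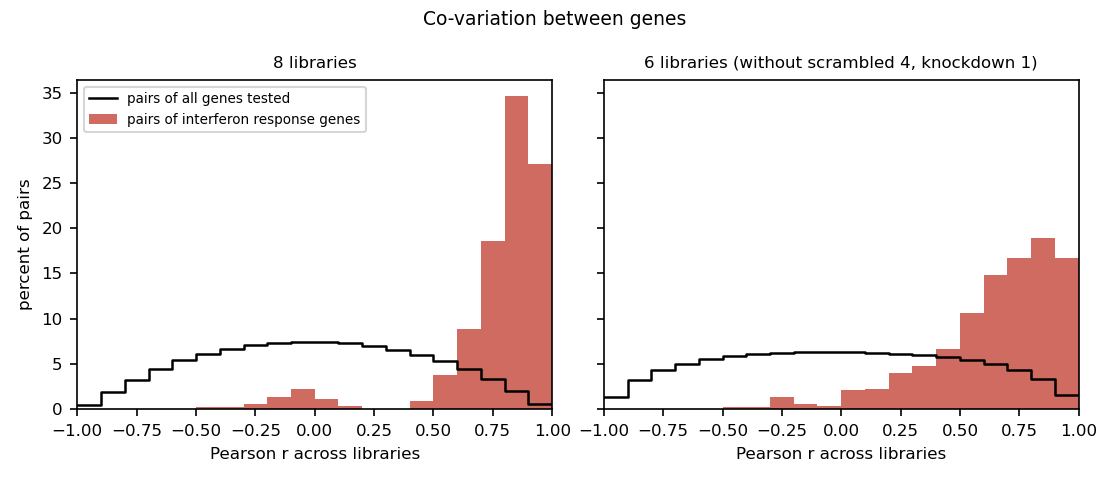
Distribution of Pearson's r across libraries for the 528 pairs of interferon response genes (bars) and for all pairs of genes tested (line), as percent of pairs in steps of 0.1, over 8 libraries (left) and 6 libraries (right). Member pairs pile up at high r in both panels, and the small group near 0 on the left is made of pairs with Ifit1.

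The 5 most similar pairs were computed with 2-sided exact permutation tests over the 40320 orders of the libraries, adjusted over the 528 pairs by the Benjamini-Hochberg method. Being the extremes of 528, they describe the top of the range. Usp18 and Ifit2 had r = 0.993 (exact permutation p = 0.000719, adjusted p = 0.00535) and Spearman's rho = 0.905 (exact permutation p = 0.00456, adjusted p = 0.0178). Without the 2 libraries farthest from the median of Usp18 their r was 0.985. Mx1 and Ifit3 had r = 0.990 (exact permutation p = 9.92e-05, adjusted p = 0.00285) and rho = 0.952 (exact permutation p = 0.00114, adjusted p = 0.0116), with r = 0.976 without the 2 farthest libraries.

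Irf7 and Ifit3 had r = 0.988 (exact permutation p = 0.000298, adjusted p = 0.00342) and rho = 0.905 (exact permutation p = 0.00456, adjusted p = 0.0178), with r = 0.970 without the 2 farthest libraries. Gbp2 and Cxcl10 had r = 0.984 (exact permutation p = 9.92e-05, adjusted p = 0.00285) and rho = 0.929 (exact permutation p = 0.00223, adjusted p = 0.0144), with r = 0.959 without the 2 farthest. Eif2ak2 and Oasl2 had r = 0.983 (exact permutation p = 0.00179, adjusted p = 0.0082), but their rho of 0.690 did not pass (exact permutation p = 0.0694, adjusted p = 0.10). Their r without the 2 farthest libraries was 0.963.

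The 2 least similar pairs were Ifit1 with Ddx58, at r = −0.43 (exact permutation p = 0.286, adjusted p = 0.305; rho = −0.38, exact permutation p = 0.360, adjusted p = 0.400), and Ifit1 with Psmb8, at r = −0.32 (exact permutation p = 0.434, adjusted p = 0.460; rho = −0.24, exact permutation p = 0.582, adjusted p = 0.620). Without the 2 farthest libraries r was −0.21 and 0.09. By median r with the other members, Usp18 (0.91), Dhx58 (0.91) and Ifit2 (0.91) stood highest, and Parp14 (0.68), Ddx58 (0.66) and Ifit1 (−0.07) lowest.

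Promoters are shown for members that moved together, to give the letters that interferon-activated factors are known to read. The ISRE was searched as GAAA, any 2 bases and GAAA, and the GAS element as TTCNNNGAA, on both strands, in 300 bases around each gene's start in a RefSeq promoter table of GRCr8. Of the 33 members 24 had an entry, and 16 of the 24 (66.7%) held an ISRE match, against 3.92% of 33465 promoters. A GAS match was found in 7 of the 24 (29.2%), against 8.87% of all promoters. A match describes letters and is not a measured binding site. The 4 members shown first have the highest median r among those whose promoter entry held an ISRE match upstream of the start, with the match in capitals, overlapping matches merged. Oas1a is at chr12:41330405-41330460 (plus strand), Irf7 at chr1:205800063-205800112 (minus), Ifit3 at chr1:241527262-241527311 (plus) and Bst2 at chr16:18255063-18255118 (minus).
Oas1a: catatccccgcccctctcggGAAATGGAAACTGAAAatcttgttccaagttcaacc
Irf7: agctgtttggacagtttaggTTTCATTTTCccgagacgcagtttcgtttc
Ifit3: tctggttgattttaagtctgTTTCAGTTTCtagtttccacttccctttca
Bst2: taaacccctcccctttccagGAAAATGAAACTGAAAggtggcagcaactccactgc

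The ISRE match of Ifit3 began 44 bases before the start and that of Oas1a 41 bases before it. The factors Irf1 and Irf9 held a GAS match and no ISRE match in this window, and are shown with the GAS letters in capitals. They are at chr10:38417773-38417821 and chr15:33065717-33065765, both on the plus strand.
Irf1: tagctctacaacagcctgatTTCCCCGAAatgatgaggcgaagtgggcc
Irf9: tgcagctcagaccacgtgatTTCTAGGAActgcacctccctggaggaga

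Other genes of the pathway were read from lists of receptors, adaptors and targets. None of their members passed the edgeR test in either direction, against 0.00% of all genes. The receptor chain Ifnar1 had an r of 0.51 with the score, and the smallest p among receptors and their kinases were those of Tyk2 (log2 fold change 0.20) and Ifnar2 (0.26).

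Of 41 other interferon-stimulated genes tested, 25 (61.0%) had an r of at least 0.7 with the score, against 4.56% of all genes tested. So had 9 of 14 interferon gamma targets (64.3%), 9 of 18 genes for antigen processing and class I molecules (50.0%) and 6 of 13 adaptors and kinases of the sensors (46.2%). Without the 2 libraries with high scores, 25 of the 41, 6 of the 14, 8 of the 18 and 2 of the 13 did, against 9.80% of all genes. Over the 8 libraries, 1 of the 13 went the other way at −0.7 or lower, against 523 of all 16573 genes tested. It was the adaptor Mavs (−0.75), and Irf3 and Tbk1 had an r of −0.52 and −0.47. Named by smallest p, Trex1 and Shisa5 had log2 fold changes of −0.38 and −0.16, Ciita and Ccl5 −1.41 and −1.46, Tap2 (1 of 2 rows of that name, the other at 0.07) and Psmb10 −1.15 and −0.22, and Ikbke and Traf6 0.47 and −0.67. Their edgeR adjusted p were 0.833 to 0.859.

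The interferons themselves were nearly absent from the libraries. Of 12 listed ligand symbols 9 were in the table and 0 passed the filter on low counts. The 9 summed to at most 0.294 CPM in a library, with 0.179 CPM in scrambled replicate 4 and 0.0811 CPM in knockdown replicate 1. Ifna2, Ifna5, Ifna16l1 and Ifne had 0 counts in all 8 libraries, which allows at most 0.108 CPM each (3 counts in the library with the smallest scaled total).

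Scores of 8 of 9 marker lists spanned at most 1.02, against 2.81 for the member score, and red blood cell genes (2.59) nearly as much. In bulk tissue, more cells of a type and more RNA per cell cannot be told apart. The score of 16 microglia markers spanned 0.86 over the libraries. It was −0.08 in scrambled replicate 4 and 0.38 in knockdown replicate 1, so it was not raised in both. Summed microglia markers ran from 600.2 to 943 CPM in the scrambled libraries, with 782 CPM in replicate 4, and from 559.8 to 979.6 CPM in the knockdown libraries, with 979.6 CPM in replicate 1. Of the 16 markers 6 had an r of at least 0.7 with the member score, among them C1qb (0.87), C1qc (0.83) and Aif1 (0.82), whereas P2ry12 had 0.26, Tmem119 0.30 and Trem2 −0.01. Without the 2 libraries with high scores 10 of the 16 did, against 9.80% of all genes, with P2ry12 at 0.94. The r between the microglia and member scores was 0.73. None of the 17 microglia markers in the table was at 0 in all libraries. The part of microglia in the co-variation was not tested.

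Of 8 leukocyte markers tested 2 reached an r of 0.7, and the 21 in the table summed to 174 to 228 CPM in the scrambled and 161 to 188 CPM in the knockdown libraries. The other way, at −0.7 or lower, were 2 more. The leukocyte score was 0.23 in scrambled replicate 4 and −0.41 in knockdown replicate 1. Phagocyte markers reached an r of 0.7 in 5 of 15, endothelial markers in 1 of 17, mural and meningeal markers in 1 of 20, and astrocyte, oligodendrocyte and neuron markers in 0 of 16 each. The phagocyte and endothelial scores each had an r of 0.81 with the member score, over spans of 1.02 and 0.21. Red blood cell genes went the other way, with a score of 1.52 in scrambled replicate 3, the lowest library for the members, and −1.06 in knockdown replicate 1, the highest. The r between the 2 scores was −0.68. Both scores were read in the same 8 libraries, whose preparation and cell makeup may differ. Red blood cell genes summed to 609 to 2443 CPM in the scrambled and 359.9 to 759.96 CPM in the knockdown libraries. The part of these cell types in the results was not tested. The log2 ratio of long to short genes, a measure of transcript length, was −0.15 in scrambled replicate 4 and 0.08 in knockdown replicate 1, with an r of 0.02 with the member score. After each library's trend with gene length was subtracted, the median r of the member pairs was 0.84.

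**Figure D5:**
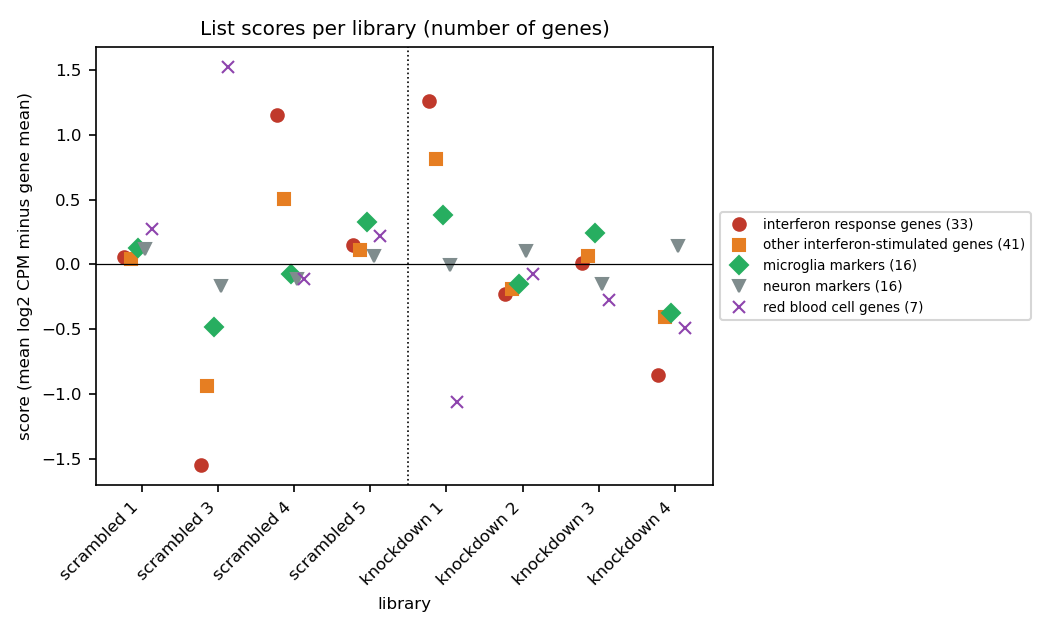
Scores per library for 5 lists (mean log2 CPM minus each gene's mean, number of genes in parentheses), with libraries on the horizontal axis and a dotted line between the groups. The 33 members and the 41 other interferon-stimulated genes are high in scrambled replicate 4 and knockdown replicate 1 and low in scrambled replicate 3, while neuron markers stay near 0.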

How the data were processed

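Poly-T selected, strand-marked (dUTP) libraries were made from 4 animals a group, per the labels' protocols, which call them biological replicates. The p-values of group differences are relative to the spread among animals, and the exact permutation p of r and rho are relative to shuffled orders of the libraries. The authors deposited whole-number read counts per gene with no normalization and FPKM values for the same genes. Build rn6 and the tools featureCounts 1.5.0-p3, HISAT2 2.0.5, fastp and StringTie 1.3.3b come from the submitters' processing notes, without roles or settings.

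Counts were fitted with edgeR 4.0.16 (R 4.3.3): filterByExpr with a minimum count of 10, TMM factors, robust quasi-likelihood F test, no covariates, and Benjamini-Hochberg adjustment over 16573 genes at a threshold of 0.05. The standard error is the fold change over the square root of F. The same script was tested on simulated data: 3 sets of 16573 genes with 200 changed gave 384 calls, of which 22 were false. Alternatives were other scalings and filters, DESeq2 1.42.0, limma 3.58.1 (voom and FPKM), a replicate block, and leaving out libraries. The members, lists and alternatives were chosen with earlier results of these data known. Values in every library were given for the 2 members of each role with the smallest p and the 3 with the highest and lowest median r; other members given were chosen after their values were seen. For each pathway list the 2 genes with the smallest p are named. A gene of these lists is not reported here.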

Additional observations from a re-analysis of the deposited data

Results flagged for a closer look

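Dixon's test at its 95% critical value for 4 samples was run on each group of each of the 33 genes and of their score, 68 groups in all. It singled out 14 values, each far from the other 3 libraries of its group, where chance gives about 1 in 20, and the groups are not independent because the genes vary together. In knockdown replicate 1 these were Mx1 at 41.3 CPM, Usp18 at 45.4 CPM, Ifit2 at 37.2 CPM, Isg15 at 39.8 CPM, Ifit3 at 19.9 CPM, Gbp2 at 15.4 CPM and Cxcl10 at 9.92 CPM. Oasl at 5.22 CPM, Zbp1 at 4.97 CPM, Gbp5 at 6.08 CPM and Ifih1 at 6.24 CPM were singled out in the same library. In scrambled replicate 4 they were Ifit1 at 17.6 CPM and Gbp5 at 5.48 CPM, and in scrambled replicate 3 Eif2ak2 at 8.77 CPM.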

How the results depend on the processing

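The edgeR test called 0 of 16573 genes, and DESeq2 called 18, with 0 of the 33 members among them. Leaving out single libraries gave 0 to 1 genes (1 without knockdown replicate 2, and 1 without replicate 3). Members called stayed at 0 in all 20 alternatives run for the group difference, though DESeq2 could not call members to which it gave no adjusted p. The members' median log2 fold change was 0.01 to 0.15 under the other scalings, filters and tools, and −0.58 to 0.56 without single libraries. Both groups have libraries numbered 1, 3 and 4. The labels do not say that these numbers pair animals, so the main fit did not pair them. Same-numbered libraries correlated in their deviations from the group means at r = 0.369, 0.299 and 0.0866. Scrambled replicates 1 and 3 correlated best with their own number, and scrambled replicate 4 with knockdown replicate 3 (0.218). Knockdown replicates 1, 3 and 4 each correlated best with their own number. Whether the numbers pair animals was not settled. With a replicate block on these 6 libraries the median was 0.42 and 0 genes were called, and without the block it was 0.21; Irf1 turned from −0.11 to 0.0349 with and 0.0348 without the block. The log2 fold change of Isg15 was −0.0305 on log2(FPKM + 1), with and without a filter, and −0.0099 on log2(FPKM + 0.1), and that of Ifit1 was 0.30, 0.30 and 0.79.

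Without scrambled replicate 4 and knockdown replicate 1 together, chosen after seeing the data, Usp18 had −0.0342, Isg15 −0.35, Oasl2 −0.0162, Dhx58 −0.0521, Ddx58 −0.0784 and Ifit1 3.97. Without single libraries the fold changes ran from −0.75 to 1.22 for Usp18, −0.61 to 0.97 for Ifit2, −1.33 to 1.10 for Isg15, −0.12 to 0.51 for Oasl2 and −0.46 to 0.55 for Dhx58. They ran from −0.39 to 0.0552 for Irf1, −0.84 to 0.13 for Psmb9, −3.13 to 0.26 for Cxcl10, −1.03 to 3.54 for Ifit1 and −0.20 to 1.24 for Ddx58. The median pairwise r was 0.88 with values centred on group means, 0.71 without the 2 high libraries and 0.78 to 0.87 without single libraries. Pairs at r of at least 0.7 numbered 342 to 452 without single libraries and 276 without both. With 6 libraries no pair of members passed 0.05 after adjustment (smallest adjusted p = 0.08, exact permutation test). The r of Psmb8 and Ifit1 ran from −0.68 to 0.0574 without single libraries. With the rows spelled Ifit1lb and XAF1 the median log2 fold change was 0.15. Beyond what these settings' construction shows, the cause was not tested.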

Other observations

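Among genes outside the list, the 40 with the highest r with the member score included 18 from the pathway lists, which hold 95 tested genes in all. The first of the 40, Fyb, an adaptor of immune cells, had an r of 0.99 over the 8 libraries and 0.99 over the 6 without scrambled replicate 4 and knockdown replicate 1. It was chosen after its values were seen.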
